A study of Gasterosteus aculeatus with 31 samples.

Results

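The brother-sister difference in brain chromatin was compared between 8 father-reared and 7 orphaned pairs of juvenile threespine stickleback (Gasterosteus aculeatus). A pair was a male and a female whose fish identifiers begin with the same number, read as 1 family. The labels do not list families, so that reading is an inference. The pairs used 30 of the 31 libraries of the series, 16 from father-reared fish and 14 from orphaned fish. The remaining library came from an orphaned female with no brother in the series and was left out. Pairs are numbered within each care group, and the number is only a name.

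The fish were offspring of wild-caught fathers from Putah Creek, bred in a half-sib design. Father-reared fish (Day 10 in the labels) were raised by that father, and orphaned fish (Day 0) were reared by hand without him. Fish of both groups, aged 6 to 8 months and not yet mature, met a model sculpin moved past them in an open arena as a simulated attack, and their brains were taken afterwards. A single side of the brain, left or right, frozen as a homogenate of all its cell types, gave 1 library, and sex came from a DNA marker. Care was given to families, so the pair is the unit of every comparison below. Half-sib families can share a father. The labels do not mark which pairs do, so every test treats the pairs as independent.

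Stickleback fathers tend the nest alone: they fan the eggs, guard the fry and retrieve strays, and mothers give no care after spawning. ATAC-seq reads accessible chromatin by letting the Tn5 transposase cut open DNA and attach sequencing adapters, so that promoters and enhancers in use appear as peaks of reads. In bulk tissue, fewer cells with an open site and a less open site in each cell cannot be told apart. Males of this species are XY and females XX, and groupXIX is the linkage group of that sex chromosome pair. Over much of its length the Y has diverged from the X, and the ends have diverged less. The counts carry no correction for the number of X copies, so a lower count in brothers there need not mean less open chromatin.

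The deposited table held read counts for 102149 peaks. Each count was divided by its library's total off groupXIX and multiplied by 1e+06 to give CPM, counts per 1e+06 counts off groupXIX, so that the dose of the X did not enter the scaling. The brother minus sister value of a pair is a difference of log2(CPM + 0.5), which understates the change of weak peaks. Library totals ran from 2857578 to 5812322 in father-reared brothers and from 3013093 to 10540612 in their sisters. In the orphaned pairs they ran from 3894892 to 7746584 in brothers and from 3603879 to 5769719 in sisters. The highest total, 10540612, was that of the sister in father-reared pair 1, whose brother had 4332099. Peaks are named by linkage group or scaffold and start, in the coordinates of the file. They were tied to no gene or sequence, since their build was not given in the sources used here.

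In both father-reared and orphaned pairs most peaks with a brother-sister difference lay on groupXIX and were lower in brothers, and no peak passed the test that set the care groups against each other. Of 100778 peaks tested, 0 (0.0%) passed the care contrast, which is the brother minus sister log2 value in father-reared pairs minus that in orphaned pairs (edgeR's quasi-likelihood test with family as a block, Benjamini-Hochberg adjusted p under 0.05). The lowest adjusted p was 1.00. Unadjusted, 3185 peaks (3.16%) reached p under 0.05, of which 1600 had a higher and 1585 a lower brother-sister difference in father-reared pairs. DESeq2 with the same design gave 0 calls too, and 1146 unadjusted p under 0.05. Both counts are below what a threshold of 0.05 yields on average with no difference, and the reason was not tested. The tests may be conservative, so 0 calls do not show that the care groups are alike. The median absolute care contrast was 0.13 on the log2 scale, and the median half-width of its 95% interval was 0.44. Peak intervals, and the shares of peaks inside a given fold, are approximate. Their SE was worked back from the test's F statistic and not fitted.

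How far the 2 care groups could differ depended on the strength of the peak. For 52.5% of peaks the 95% interval of the care contrast stayed inside 1.5-fold up or down, and for 97.2% inside 2-fold. Among the strongest 10% of tested peaks off groupXIX, 9644 in all, it lay within 1.5-fold for 92.3%. Among the weakest 10% it did so for 7.27%, and within 2-fold for 82.1%. The strongest peaks had a median care contrast of -0.03, and 118 of them (1.22%) had a raw p under 0.05, of which 14 were higher and 104 lower in father-reared pairs. Of the weakest 10%, 233 (2.42%) did, 143 higher and 90 lower. Peaks share libraries, so these splits are a description and not a test of direction. The brother minus sister share of counts in the strongest 10% of peaks differed by -0.773 points between the care groups (exact permutation p = 0.758). That sign reversed without father-reared pair 6 or orphaned pair 7. The part of this share in the splits was not tested.

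Each care group on its own had about as many peaks with a brother-sister difference as the other. In father-reared pairs 2057 peaks passed (2.04% of those tested), 136 higher and 1921 lower in brothers. In orphaned pairs 2000 passed (1.98%), 97 higher and 1903 lower in brothers. No peak was called in opposite directions in the 2 groups. Most of these calls lay on groupXIX and were lower in brothers: 1893 in father-reared and 1881 in orphaned pairs, of which 1797 were the same peaks (94.9% and 95.5% of each list). The fewer groupXIX peaks higher in brothers numbered 31 in father-reared and 18 in orphaned pairs, with 12 in common. Without father-reared pair 8, 116 peaks were higher in father-reared brothers, 96 of them off groupXIX.

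Off groupXIX the calls overlapped less. There 105 peaks were higher in father-reared brothers and 79 in orphaned brothers than in their sisters, and 58 were the same peaks (55.2% and 73.4% of each list). Another 28 peaks were lower in father-reared brothers and 22 in orphaned brothers, with 2 in common (7.14% and 9.09%). These lower counts moved up or down with single pairs. In father-reared brothers the 28 became 79, 49 and 17 without father-reared pairs 6, 1 and 7. In orphaned brothers the 22 became 60, 40 and 37 without orphaned pairs 5, 1 and 3, 11 without orphaned pair 2, 10 without orphaned pair 4 or 7, and 35 without father-reared pair 2. The 79 peaks higher in orphaned brothers became 145 without orphaned pair 5. A call in 1 group and not in the other is not a difference between them, and none of these peaks passed the care contrast. Of the 68 peaks called higher off groupXIX in 1 care group alone, 57 had the same sign in the other, and of the 46 called lower in 1 group alone, 32 did. These off-groupXIX calls also leaned on the adjustment over all peaks: with groupXIX left out of the fit, 50 were higher and 4 lower in father-reared brothers, and 38 higher and 1 lower in orphaned brothers.

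Along groupXIX the brother to sister ratio of summed counts was nearly the same in both care groups, stretch by stretch. The middle, from 4 to 12 Mb, had the largest deficit in brothers. There the log2 ratio ran from -0.87 to -0.78 in father-reared pairs with a median of -0.85, and from -0.88 to -0.78 in orphaned pairs with a median of -0.83. All 15 pairs fell in that narrow band, and the groups overlapped almost fully. The means were -0.84 ± 0.04 in father-reared and -0.84 ± 0.03 in orphaned pairs (SD, n = 8 and 7). The difference of 0.000488 had a 95% interval from -0.04 to 0.04 (two-sided exact permutation test over 6435 arrangements, p = 0.976, adjusted p over 12 measures = 0.976).

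The other 3 stretches had small ratios in both groups. From 12 Mb to the end the means were -0.11 ± 0.03 in father-reared and -0.12 ± 0.03 in orphaned pairs, and brothers were lower in all 15 pairs. From 2 to 4 Mb, next to the middle, the means were -0.13 ± 0.10 in father-reared and -0.15 ± 0.08 in orphaned pairs. Brothers were lower there in 7 of 8 father-reared pairs and in 7 of 7 orphaned pairs. From 0 to 2 Mb the means were 0.04 ± 0.07 in father-reared and 0.02 ± 0.05 in orphaned pairs, with values on both sides of 0 in each group. None of these differences passed (exact permutation test, adjusted p = 0.910 for each). The share of a library's counts on groupXIX, which also checks the sex label, was lower in the brother in every pair, by -1.04 to -0.809 percentage points in father-reared and by -1.03 to -0.813 percentage points in orphaned pairs.

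**Figure D1:**
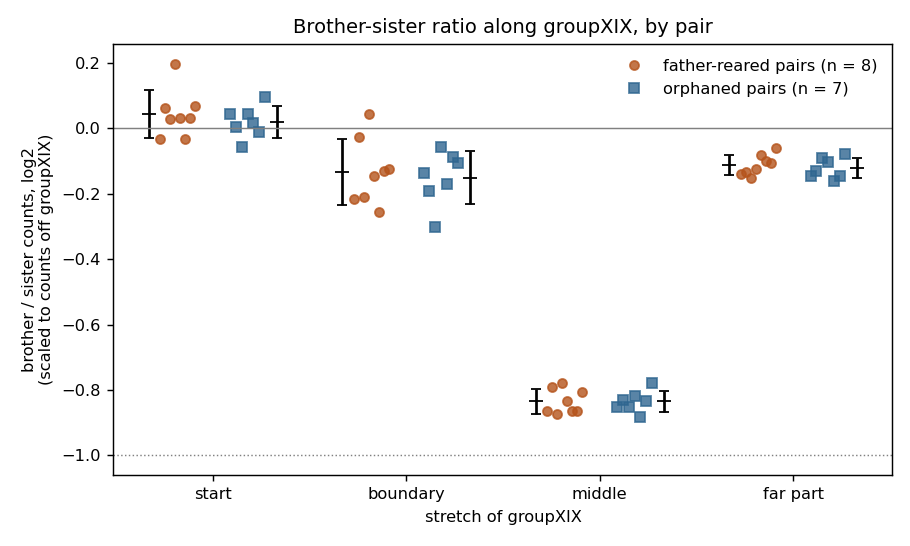
Brother to sister log2 ratio of summed counts in 4 stretches of groupXIX (start, 0 to 2 Mb; boundary, 2 to 4 Mb; middle, 4 to 12 Mb; far part, 12 Mb to the end), scaled to counts off groupXIX, with 1 point a pair and black bars for mean ± SD. Father-reared pairs (n = 8) stand left of orphaned pairs (n = 7). In the middle all pairs lie between -0.88 and -0.78, near the dotted line that marks a 2-fold lower count, and the groups overlap in every stretch.

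Over all 15 pairs 2356 peaks (2.34%) passed the test of the mean of both care groups' differences. Because that test used both groups, the direction of these peaks in either group is fixed by the choice, and their values are given as a description. On groupXIX 2086 were lower in brothers, with a median fitted log2 difference of -0.96 in father-reared and -0.95 in orphaned pairs. The median over these peaks within a single pair ran from -0.97 to -0.79 among father-reared and from -0.92 to -0.83 among orphaned pairs. Of the 2086 peaks, 1429 were lower in the brother in all 15 pairs. The 79 groupXIX peaks higher in brothers had medians of 0.42 in father-reared and 0.39 in orphaned pairs. At a raw p under 0.05 for the care contrast stood 70 of the 2086 (3.36%) and 1 of the 79 (1.27%), against 3.16% of all peaks.

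Off groupXIX 140 peaks were higher and 51 lower in brothers. The 51 became 116, 83, 33 and 31 without father-reared pair 6, orphaned pair 5, father-reared pair 4 and orphaned pair 7, and with groupXIX left out of the fit 89 were higher and 4 lower. The 140 had median differences of 0.83 in father-reared and 0.74 in orphaned pairs, and 40 of them were higher in the brother in all 15 pairs. The 45 that differed at least 2-fold had medians of 1.60 in father-reared and 1.49 in orphaned pairs, and 31 were higher in every brother. The 51 lower in brothers had medians of -0.43 in father-reared and -0.48 in orphaned pairs, and 1 was lower in every brother. In 3 father-reared pairs and 3 orphaned pairs (2, 4 and 8, and 2, 4 and 7) these 51 peaks differed most, with pair medians from -0.75 to -0.53 and from -0.67 to -0.39. Of the 140 and the 51, 5 (3.57%) and 4 (7.84%) had a care contrast with a raw p under 0.05.

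**Figure D2:**
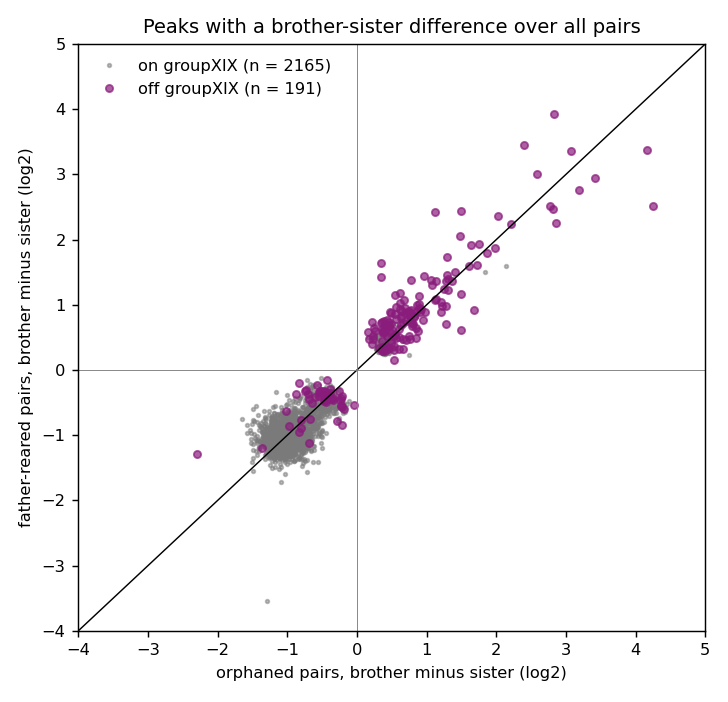
Fitted brother minus sister log2 difference in father-reared pairs (vertical) against orphaned pairs (horizontal) for the 2356 peaks that passed the test over all 15 pairs, 2165 on groupXIX (grey) and 191 off it (purple). Most groupXIX peaks form a cloud around a median of -0.96 in father-reared and -0.95 in orphaned pairs. The purple peaks scatter around the diagonal of equal differences on both sides of 0.

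Across all tested peaks, as a description, the fitted differences of the 2 groups had a correlation of 0.91 over the 4344 peaks of groupXIX and of 0.15 over the 96434 peaks elsewhere. Within the 1684 peaks of the middle of groupXIX it was 0.70. These peaks share libraries, depth and, on groupXIX, the dose of the X, so they are not independent points. The 2 groups gave the same sign for 83.5% of peaks on groupXIX and for 53.3% elsewhere.

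The peaks with the largest brother-sister differences off groupXIX were chosen by the mean of both care groups' differences. Their like direction in both groups is thus partly set by the choice, and their values are a description. Among the 10 with the largest absolute values and a mean of at least 1 CPM, the brother was higher in 8 of 8 father-reared and 7 of 7 orphaned pairs at each. No linkage group of these data is named as the Y, and where reads from the Y were counted was not tested. A higher count in brothers at these peaks thus need not mean more open chromatin. The peak at groupX 741348 to 741748 had 8.23 to 17.1 CPM with a median of 12.7 CPM in father-reared brothers, and 0.207 to 2.21 CPM with a median of 1.35 CPM in their sisters. Orphaned brothers had 9.90 to 20.4 CPM with a median of 12.2 CPM there, and their sisters 0.00 to 1.71 CPM with a median of 0.744 CPM. Brothers and sisters did not overlap in either group. The fitted log2 difference was 3.38 (SE 0.22) in father-reared and 4.17 (SE 0.25) in orphaned pairs. The care contrast of -0.79 (SE 0.42) had a raw p of 0.067 and an edgeR adjusted p of 1.00. Each SE was worked back from its own test, so those of the care groups do not combine to that of the contrast.

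The largest gap between the care groups among these 10 was at groupVII 8638901 to 8639301. Father-reared brothers had 3.59 to 5.71 CPM (median 4.80 CPM) and their sisters 0.00 to 1.74 CPM (median 0.750 CPM). Orphaned brothers had 2.22 to 6.47 CPM (median 3.94 CPM) and their sisters 0.00 to 0.569 CPM (median 0.199 CPM). Sisters exceeded 1 CPM in 3 of 8 father-reared and 0 of 7 orphaned pairs, and values below 1 CPM rest on few reads. The log2 difference was 2.52 (SE 0.34) in father-reared and 4.25 (SE 0.48) in orphaned pairs, with a care contrast of -1.73 (SE 0.69, raw p 0.016, edgeR adjusted p = 1.00). The brother minus sister values still overlapped, from 1.04 to 3.56 in father-reared and from 2.19 to 3.80 in orphaned pairs.

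At the other 8 peaks the care contrast ran from -0.60 to 1.11 and had a raw p from 0.103 to 0.959. At groupXX 8813452 they were 3.00 (SE 0.23) in father-reared and 2.59 (SE 0.24) in orphaned pairs, and at groupIII 15591825 they were 3.36 (SE 0.37) and 3.08 (SE 0.37). At groupIV 25639941 they were 2.77 in father-reared and 3.19 in orphaned pairs, at groupXII 17639208 they were 2.51 and 2.77, and at groupVII 18431922 they were 2.26 and 2.86. At groupXI 4462164 they were 3.93 in father-reared and 2.83 in orphaned pairs, at scaffold_315 7919 they were 3.45 and 2.40, and at groupVII 1890840 they were 2.25 and 2.21. The gaps at groupXI 4462164 and scaffold_315 7919, 1.11 (95% interval -0.47 to 2.69) and 1.05 (-0.22 to 2.32), were the widest of the 8. All 10 passed in each care group, with edgeR adjusted p of at most 0.000113 in father-reared and 4.36e-05 in orphaned pairs. Because the choice used both groups, these p do not test whether the groups are alike.

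On groupXIX the named extremes were chosen in the same way, and the care groups lay furthest apart at 1 of them, described last. The peak at groupXIX 4743876 had a log2 difference of -1.55 (SE 0.22) in father-reared and -1.49 (SE 0.21) in orphaned pairs. The peaks at groupXIX 9201374 and 8349328 had -1.41 and -1.34 in father-reared pairs, against -1.51 and -1.49 in orphaned pairs. Brothers were lower at these 3 peaks in all 15 pairs. Among the peaks higher in brothers, groupXIX 14092512 had 0.83 (SE 0.12) in father-reared and 0.86 (SE 0.13) in orphaned pairs, and groupXIX 18078143 had 0.87 (SE 0.13) and 0.73 (SE 0.14), in all 15 pairs. At groupXIX 415478 the values were 1.59 (SE 0.37) in father-reared and 2.14 (SE 0.43) in orphaned pairs, and the brother was higher in 7 of 8 and in 7 of 7. Without the family block the father-reared call there was lost (edgeR adjusted p = 0.057). The weak peak at groupXIX 13176919 had -1.72 (SE 0.47, edgeR adjusted p = 0.029) in father-reared and -1.10 (SE 0.37, edgeR adjusted p = 0.20) in orphaned pairs. It passed the filter in 8 of the 15 fits that each left out a pair, and was not tested in the others. Its call in father-reared pairs was lost without father-reared pair 4 (edgeR adjusted p = 0.11), without the family block (0.051), with brain side as a covariate (0.080), with DESeq2 (0.075), with limma on pair differences (0.081) and with limma after the trend was removed and pairs weighted (0.055).

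The groupXIX extreme with the care groups furthest apart was groupXIX 19958361 to 19958761, where fish had either a clear peak or almost none. Father-reared brothers had 0.239 to 1.03 CPM, while 5 of their sisters had 10.4 to 16.9 CPM and the other 3 had 0.00 to 0.382 CPM. Among the orphaned fish 3 brothers had 10.0 to 14.3 CPM and 4 had 0.266 to 0.788 CPM, and 5 sisters had 7.63 to 31.2 CPM and 2 had 0.181 and 0.598 CPM. The brother was the lower in 5 of 8 father-reared and 4 of 7 orphaned pairs. The fitted log2 difference was -3.54 (SE 0.41) in father-reared and -1.30 (SE 0.28) in orphaned pairs, with a care contrast of -2.25 (SE 0.54, raw p 9.25e-05, edgeR adjusted p = 1.00). Values that split in this way are poorly described by a mean difference: the orphaned call was lost without orphaned pair 1 (edgeR adjusted p = 0.058) and without the family block (edgeR adjusted p = 0.87), and under DESeq2 (1.00) and 3 limma settings (0.39 to 0.54). The father-reared call was lost under DESeq2 (adjusted p = 0.061).

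The peaks named for the care contrast were those ranked first by raw p, and none passed. The lowest, 4.50e-05, belonged to scaffold_56 749559 to 749959. Its brother minus sister values ran from -0.10 to 1.51 with a median of 0.50 in father-reared pairs, and from -1.39 to 0.87 with a median of -1.19 in orphaned pairs. The brother was higher in 7 of 8 father-reared and in 2 of 7 orphaned pairs, and the groups overlapped. The fitted differences were 0.77 (SE 0.24) in father-reared and -0.77 (SE 0.25) in orphaned pairs, a care contrast of 1.55 (SE 0.35, 95% interval 0.84 to 2.25, edgeR adjusted p = 1.00).

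The lowest raw p in the other direction, 5.32e-05, was at groupVIII 16147351 to 16147751. Brother minus sister values there ran from -1.21 to 0.04 (median -0.47) in father-reared and from -0.79 to 1.01 (median 0.82) in orphaned pairs, and the groups overlapped through orphaned pairs 5 and 6. The care contrast was -0.92 (SE 0.21, edgeR adjusted p = 1.00). Leaving out orphaned pair 5, the lowest of the orphaned values, brought its edgeR adjusted p to 0.089, the lowest reached by any peak under any setting tried. The peak at groupXVIII 7949070 reached the same value without that pair. At groupVI 8894393 to 8894793 the brother was higher in 2 of 8 father-reared and in 7 of 7 orphaned pairs, with a care contrast of -1.11 (SE 0.26, raw p 8.13e-05).

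**Figure D3:**
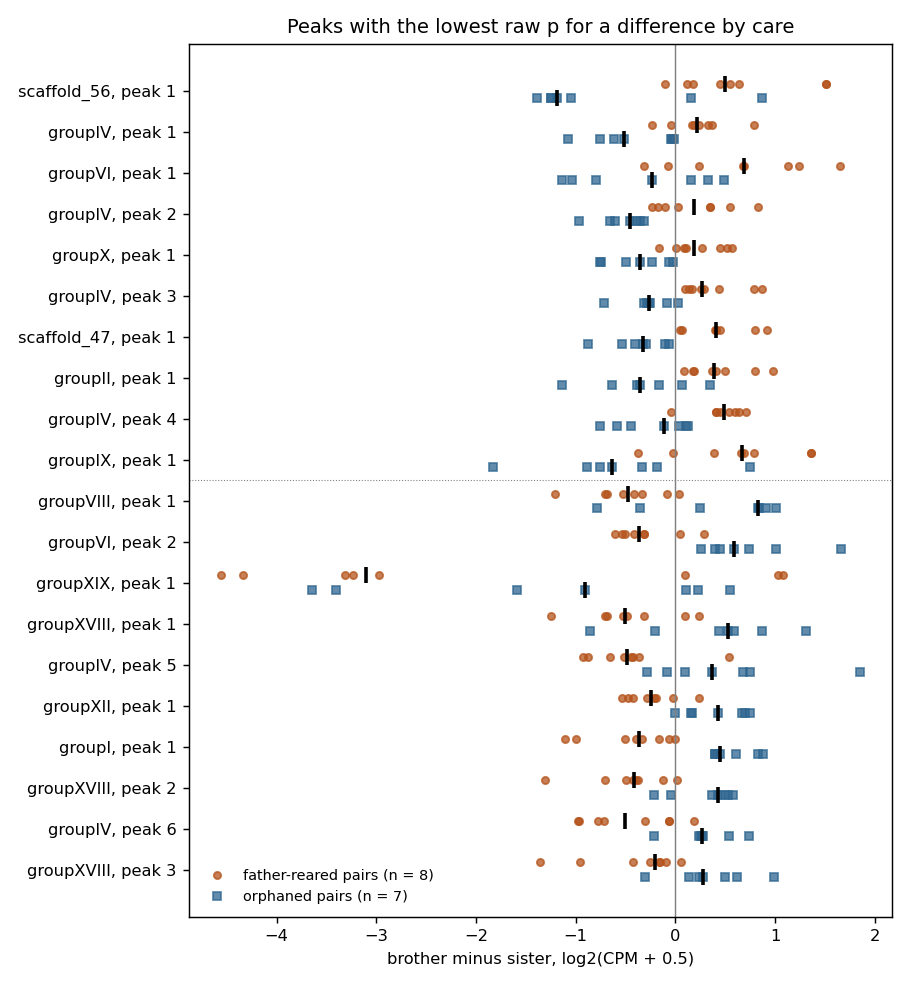
Brother minus sister difference in log2(CPM + 0.5) for each pair at the 20 peaks with the lowest raw p for the care contrast, 10 with a higher mean difference in father-reared pairs above the dotted line and 10 with a lower one below it. Father-reared pairs (circles, n = 8) are drawn above orphaned pairs (squares, n = 7), with a black tick at each median. The peaks were chosen for this contrast and none passed; the groups overlap at 16 of the 20.

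The other named peaks with a higher difference in father-reared pairs had care contrasts from 0.63 to 1.04, and the others with a lower one, groupXIX 19958361 apart, from -1.07 to -0.67. Values that did not overlap between the care groups were found at groupIV 15392134, groupIV 941616 and scaffold_47 1119029, all higher in father-reared pairs, and at groupI 4007921, lower in them. At scaffold_47 1119029 the brother was higher in 8 of 8 father-reared pairs, by 0.05 to 0.92, and lower in 7 of 7 orphaned pairs, with values from -0.87 to -0.07 (care contrast 0.83, SE 0.23, raw p 0.00066). Over all peaks tested, 22 (0.0218%) had pair values that did not overlap between the groups, 11 with the father-reared values higher and 11 with them lower. At 6 of the 22 every father-reared pair lay on 1 side of 0 and every orphaned pair on the other. Of the 6435 ways to divide the pairs by care, 1 in each direction separates the values of a peak fully. Chance alone therefore yields such peaks among this many, and the 22 are given as a description.

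The widest gap was at groupI 4007921 to 4008321. The brother minus sister values ran from -1.10 to 0.00 in father-reared pairs and from 0.40 to 0.88 in orphaned pairs, so that the sister was higher in 8 of 8 father-reared pairs and the brother in 7 of 7 orphaned pairs. In father-reared fish the medians were 3.69 CPM in brothers and 5.30 CPM in sisters, and in orphaned fish 5.35 CPM in brothers and 3.19 CPM in sisters. The care contrast was -1.07 (SE 0.28, raw p 0.00029, edgeR adjusted p = 1.00).

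The 5 groupXIX peaks with the lowest raw p for care included groupXIX 19958361, described above. At groupXIX 9776305 to 9776705, in the middle stretch, the brother minus sister values ran from -1.65 to -0.93 in father-reared and from -1.32 to 0.19 in orphaned pairs. The 2 groups of brothers had like levels there, 3.56 to 6.46 CPM in father-reared and 3.88 to 9.65 CPM in orphaned brothers, whereas sisters had 12.0 to 14.4 CPM when father-reared and 6.32 to 10.8 CPM when orphaned. The care contrast was -0.87 (SE 0.23, raw p 0.0004, edgeR adjusted p = 1.00). At groupXIX 11847113, also in the middle, the values were -0.61 to 0.49 in father-reared and -1.38 to -0.78 in orphaned pairs and did not overlap (care contrast 0.84, SE 0.26, raw p 0.0022). At groupXIX 3741148 and 17387600 the care contrasts were -0.74 (SE 0.24) and 0.84 (SE 0.27). All 5 had an edgeR adjusted p of 1.00.

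Summing counts over larger regions narrowed the intervals and did not bring out a difference by care. The linkage groups were divided into windows of 1 Mb, and scaffolds with at least 5 peaks were kept whole, 592 regions in all. Of these 0 (0.0%) passed edgeR's quasi-likelihood test, where 9 had an unadjusted p under 0.05 and the lowest adjusted p was 1.00. Those 9 are fewer than a threshold of 0.05 yields on average with no difference, and the reason was not tested. The region test may thus be conservative too, and its 0 calls do not show that the care groups are alike. For 92.2% of regions the 95% interval stayed inside 1.25-fold up or down. The 5 regions with the lowest raw p were scaffold_173 (care contrast 0.81, SE 0.28, 5 peaks), groupIV from 7 to 8 Mb (-0.09, SE 0.03, 145 peaks), groupIV from 6 to 7 Mb (-0.07, SE 0.03), groupI from 11 to 12 Mb (-0.06, SE 0.03) and scaffold_231 (-0.12, SE 0.06). Their raw p ran from 0.0095 to 0.041. Without the family block 0 regions passed, with 6 at a raw p under 0.05.

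None of the 21 linkage groups passed, nor did the pooled scaffolds as the last of 22 units (two-sided exact permutation test, lowest p = 0.080 at groupIV, adjusted p = 0.876). At groupIV the mean brother to sister log2 ratio was -0.0086 ± 0.010 in father-reared and 0.0015 ± 0.010 in orphaned pairs (SD, n = 8 and 7). Apart from groupXIX, at -0.35 ± 0.04 in father-reared and -0.36 ± 0.03 in orphaned pairs, every unit had a mean within 0.0214 of 0 in both groups.

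Brothers and sisters differed more in some pairs than in others, in both care groups. The SD over peaks off groupXIX of the brother minus sister log2 value measures how far apart the 2 libraries of a pair are. It ran from 0.328 to 0.509 with a median of 0.413 in father-reared pairs, and from 0.314 to 0.473 with a median of 0.394 in orphaned pairs. The highest 3 values belonged to father-reared pairs 2, 4 and 6, and the groups overlapped. That order moved with depth: with every library thinned to the lowest total, father-reared pair 2 had 0.583, orphaned pair 7 had 0.546, and father-reared pairs 6 and 4 had 0.542 and 0.520. The means were 0.429 ± 0.070 in father-reared and 0.399 ± 0.053 in orphaned pairs (SD, n = 8 and 7), a difference of 0.030 with a 95% interval from -0.041 to 0.101 (exact permutation p = 0.372, adjusted p = 0.910).

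The same SD over the peaks of groupXIX also takes in the unlike ratios of its stretches. It averaged 0.645 ± 0.047 in father-reared and 0.605 ± 0.035 in orphaned pairs. Its difference of 0.040 had the lowest p of the 12 measures (exact permutation p = 0.092, adjusted p = 0.910). With counts thinned to equal totals, this SD ran from 0.652 to 0.739 in father-reared and from 0.654 to 0.713 in orphaned pairs. Peaks off groupXIX that differed at least 2-fold within a pair made up 3.00% ± 2.11 of peaks in father-reared and 1.91% ± 1.07 in orphaned pairs (exact permutation p = 0.235, adjusted p = 0.910). Thinned to equal totals, that share was higher in every pair and the groups lay closer, at 2.91% to 9.07% in father-reared and 2.99% to 6.98% in orphaned pairs. The correlation of brother and sister log2 CPM over peaks was 0.866 ± 0.040 in father-reared and 0.865 ± 0.039 in orphaned pairs.

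The share of counts in the strongest 10% of peaks differed within several pairs, brother minus sister. It was 9.90, 5.85 and -6.49 percentage points in father-reared pairs 2, 4 and 6, and 8.01 points in orphaned pair 7, which had the highest spread of the orphaned pairs. Orphaned pair 2 had 5.15 points at a spread of 0.394, the median of the orphaned pairs, while father-reared pairs 5 and 8 had -0.409 and -0.414 points at spreads of 0.411 and 0.415. Orphaned pairs 4 and 5 had 5.04 and -4.11 points at spreads of 0.439 and 0.433. The part of this share in the spread was not tested. In father-reared pair 1, which held the deepest library, the share differed by 0.284 points, and the spread was 0.328 as deposited and 0.461 with counts thinned to equal totals. The mean difference in that share was 0.741 ± 5.00 points in father-reared and 1.51 ± 4.57 points in orphaned pairs (exact permutation p = 0.758, adjusted p = 0.910). With each pair's trend on peak strength removed, an alternative added after the data were seen, limma gave 0 calls for care and 4538 unadjusted p under 0.05.

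**Figure D4:**
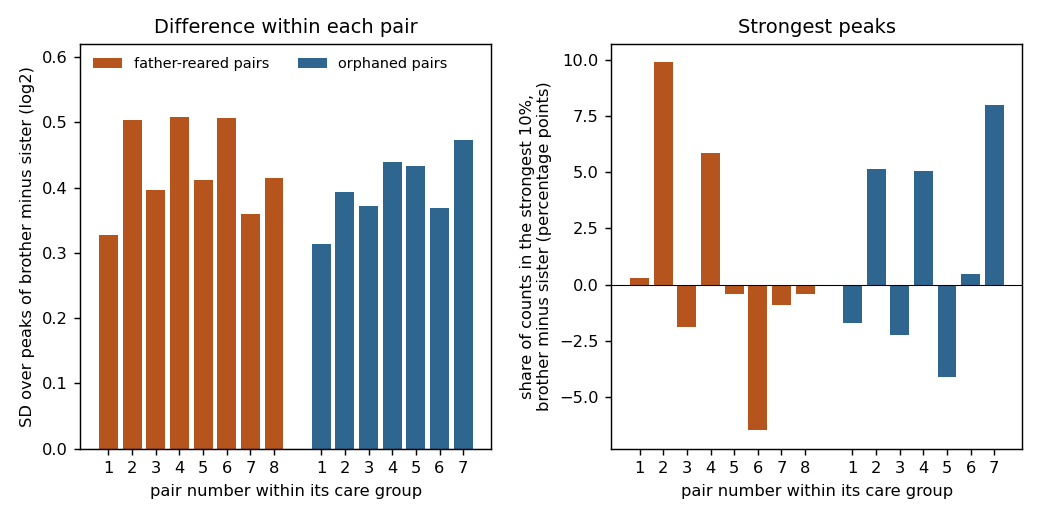
Left, the SD over peaks off groupXIX of the brother minus sister log2 value in each pair, from counts as deposited; right, the brother minus sister share of counts in the strongest 10% of peaks, in percentage points. Father-reared pairs 1 to 8 stand left of orphaned pairs 1 to 7. Father-reared pairs 2, 4 and 6 have the highest bars on the left, at 0.503 to 0.509, and shares of 9.90, 5.85 and -6.49 points on the right.

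Pairs of the same brain side and of different sides were spread alike over the care groups. Brother and sister came from the same side in 4 of 8 father-reared and 3 of 7 orphaned pairs, and from different sides in the other 4 and 4. Which sibling had which side was less even. In father-reared pairs 1, 2 and 7 the brother's library came from the right side and the sister's from the left. In father-reared pair 3 it was the reverse. Among orphaned pairs, 5 and 6 had the brother right and the sister left, and 1 and 3 the reverse. Side was thus not fully balanced between the care groups in the brother minus sister contrast. With side as a covariate 0 peaks passed for care, and 3199 had an unadjusted p under 0.05. The library batches are not listed, so the library numbers were divided into 3 stretches as stand-ins. Each pair was placed by its brother's library number, and the sister of orphaned pair 3 fell in the next stretch. The stretches held 3, 2 and 3 father-reared and 3, 2 and 2 orphaned pairs. Within a stretch the groups are too small for an exact test to pass after adjustment. The difference in groupXIX share between father-reared and orphaned pairs was -0.0064 percentage points in the first stretch and -0.039 in the third, against 0.014 over all pairs. In the second stretch the brother minus sister share was -0.809 and -0.894 points in father-reared pairs 4 and 5. It was -0.870 and -1.03 points in orphaned pairs 4 and 5.

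Large differences between brother and sister were mostly private to 1 pair. The following counts were chosen after the data were seen and are a description. A peak off groupXIX differed at least 4-fold within at least 1 pair at 679 of 96434 peaks, at 513 in some father-reared pair and at 319 in some orphaned pair, with 153 in both (29.8% and 48.0% of each). At 480 peaks it did so in 1 pair alone, at 99 in 2 pairs, at 90 in 3 to 7 pairs and at 10 in 8 or more. At those last 10 the brother was the higher. At 99 peaks the brother was 4-fold higher in some pair and 4-fold lower in another. Scaffolds held 24.9% of the 679 peaks and 8.29% of all peaks off groupXIX.

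Father-reared pairs had 44 to 187 such peaks each, and orphaned pairs 49 to 92. The 2 highest counts were those of father-reared pair 4, where the brother was lower at 114 of 156, and father-reared pair 6, where he was higher at 170 of 187. The same 2 pairs have strongest-peak shares that differ in opposite directions, by 5.85 and -6.49 points. The brother of father-reared pair 4 had the lowest library total of the pairs, 2857578, and the sister of father-reared pair 6 had 3192015. Father-reared pair 5, whose sister had 3013093, had 61 such peaks. The part of depth in these counts was not tested. The peak at groupXIII 19760310 to 19760710 shows how such differences fall. Its values in father-reared pairs 2, 4 and 8 were 3.61, 3.90 and -5.29, and in orphaned pairs 1, 2, 6 and 7 they were 4.48, 3.07, -4.59 and -5.08. In the other 8 pairs they ran from -1.49 to 0.26. At groupXI 4373588 to 4374371 father-reared pairs 1 and 8 had 3.73 and -6.88, and orphaned pairs 1, 4, 5 and 6 had 4.36, -2.01, 3.68 and -6.96. Both directions occurred in both care groups at these 2 peaks.

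Some of these peaks lay side by side and differed together in the same pair. In 7 windows of 100 kb at least 4 peaks differed 4-fold within a single pair. In groupX from 13.2 to 13.3 Mb the median over the 5 such peaks was 4.54 in father-reared pair 6, 4.10 in father-reared pair 7 and 2.1 in orphaned pair 2. The other 12 pairs had medians there from -1.85 to 0.69. In groupXI from 4.3 to 4.4 Mb brothers were lower in father-reared pairs 4 and 8, with medians of -2.1 and -1.77 over 13 peaks, and in orphaned pairs 4 and 6, with -2.30 and -1.46. In groupXXI from 7.9 to 8.0 Mb the median over 12 peaks was 2.29 in father-reared pair 3 and -1.53 and -1.66 in father-reared pairs 1 and 6, and it was -1.63 in orphaned pair 1.

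In the other 4 windows the values were as follows. In groupVII from 1.0 to 1.1 Mb the median over 4 peaks was 3.53 in father-reared pair 4 and 1.51 in father-reared pair 2. In groupXV from 3.0 to 3.1 Mb it was 2.74 over 10 peaks in orphaned pair 6, where 7 peaks differed 4-fold. In groupXI from 4.4 to 4.5 Mb it was -2.66 in father-reared pair 4 and -2.1 in orphaned pair 4. In that orphaned pair 4 peaks differed 4-fold but not all together: the brother was higher at 1 and lower at 3. On scaffold_27 from 0.7 to 0.8 Mb brothers were higher in every pair, with medians from 0.42 to 2.49 in father-reared and from 0.48 to 1.39 in orphaned pairs. Of the 7 windows this was the only one in which all 15 pairs had the same sign.

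**Figure D5:**
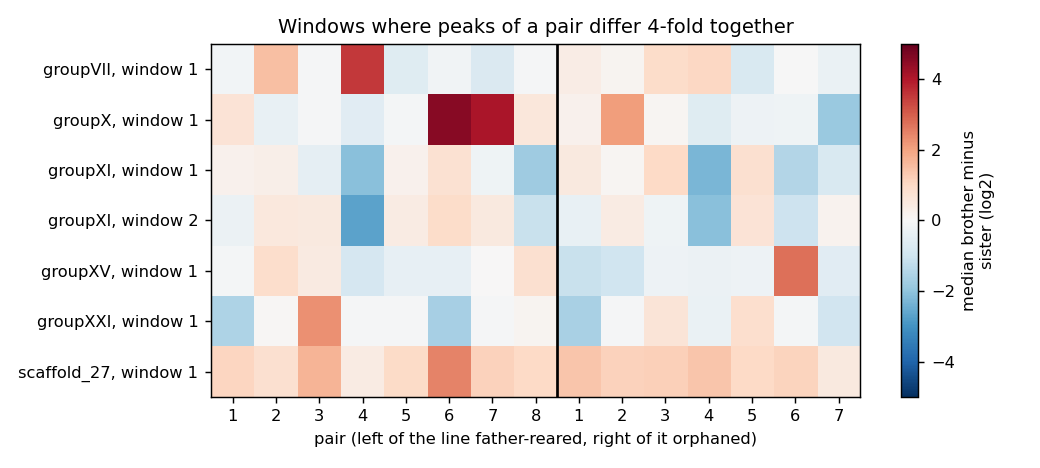
Median brother minus sister log2 value, in colour, over the peaks that differed at least 4-fold in some pair, for the 7 windows of 100 kb in which at least 4 such peaks fell in 1 pair. Columns are pairs, with father-reared pairs 1 to 8 left of the black line and orphaned pairs 1 to 7 right of it. Each row has its strongest colours in a few pairs, and the scaffold_27 row is above 0 throughout.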

How the data were processed

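ATAC-seq read counts per peak, deposited by the authors as 1 table of whole numbers for all libraries, were used as they stand. Per the submitters' processing notes, the tools were DiffBind 3.14.0, MACS2 2.2.5, Bowtie2 2.3.5.1, Picard 2.10.1, FastQC 0.11.8 and SAMtools 1.9. What each did, how reads were shifted for the Tn5 cut, how duplicates were handled and which genome build was used were not given in the sources used here. Counts carry no molecular identifiers, so intervals and tests treat reads as counts and rest on the spread between pairs. In the edgeR fit of peaks that spread was pooled over peaks. The dispersion was a trend on peak strength, and the prior had 46.7 degrees of freedom against 13 residual ones. The SE and p of a peak thus do not measure the spread of its own pairs alone. Nor was the SE fitted: it is the absolute log2 value divided by the square root of the test's F statistic. The SE of regions was obtained in the same way. Intervals of the care contrast at peaks and regions rest on these SE and are approximate. Per the labels' protocols, libraries were prepared in batches whose members are not listed.

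The members and lists were chosen with earlier results of these data known. A family was taken to be the fish whose identifiers start with the same number. As a check on that pairing, the brother's and sister's deviations from their group means had correlations from -0.166 to 0.327 over the 15 pairs, positive in 10 and above 0.1 in 7, so the data themselves do not settle it.

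Peaks were kept with filterByExpr at a minimum count of 10, which left 100778 of 102149. The fit was edgeR 4.0.16's quasi-likelihood test (R 4.3.3) with family as a fixed block and a brother-sister term for each care group, 13 residual degrees of freedom, library size as the total off groupXIX, and Benjamini-Hochberg adjustment at 0.05. Its steps were run on simulated counts with known changes, drawn at the dispersion that the fit assumes and without family effects. That run checks the code and not how well the fit suits these data. Pair measures (12) and linkage units (22) had two-sided exact permutation tests in numpy 2.4.6 with Python 3.11.15, adjusted within each family of tests. The 95% intervals of the pair measures come from the same permutations. Peak intervals took their t quantile from scipy 1.17.1. Alternatives were no family block, TMM and RLE scaling, DESeq2 1.42.0, limma 3.58.1, other filters and thresholds, brain side, groupXIX left out, and each pair left out. limma with the trend on peak strength removed, with and without weights for pairs, was added after the data were seen.

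Peaks were named by rule: for care, the 10 with the lowest raw p in each direction, none within 10 kb of another, and the 5 lowest on groupXIX; for brother-sister differences at a mean of at least 1 CPM, the 10 largest off groupXIX and the 5 lowest and 3 highest on it. Peaks with large differences in single pairs and peaks whose values did not overlap were chosen after their values were seen.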

Additional observations from a re-analysis of the deposited data

Results flagged for a closer look

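Among 150 groups of pair values examined for a single pair far from the rest, 5 had one; chance alone sets such a pair apart in about 5% of groups. Over groupXIX from 0 to 2 Mb, father-reared pair 4 had a brother to sister log2 ratio of 0.199, against -0.0326 to 0.0691 in the other father-reared pairs.

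At 4 peaks 1 pair stood apart in its brother minus sister log2 value. At groupIV 5048223, father-reared pair 1 had -0.042, against 0.41 to 0.71 in the other father-reared pairs. At groupIV 20583767 the same pair, which holds the deepest library, had 0.54, against -0.93 to -0.36 in the others. At groupXIX 11847113, father-reared pair 3 had 0.49, against -0.61 to -0.11. At groupVII 8638901, orphaned pair 3 had 3.80, against 2.19 to 2.72 in the other orphaned pairs.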

How the results depend on the processing

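No peak and no region passed the care contrast under any alternative run, with 1146 to 4884 peaks at a raw p under 0.05; with each pair left out the count stayed at 0. Without the family block there were 0 peaks for care, 2040 in father-reared, 1959 in orphaned and 2302 over all pairs. With groupXIX left out there were 54, 39 and 93. With each pair left out the counts ran from 1962 to 2109 in father-reared, 1868 to 2082 in orphaned and 2290 to 2435 over all pairs. DESeq2 called 5 peaks lower off groupXIX in father-reared brothers, 2 in orphaned brothers and 8 over all pairs. Differences of pair measures near 0 changed sign between subsets, the cause was not tested, and none passed. Within pairs of the same side the father-reared minus orphaned difference was -0.00144 points for groupXIX share, -0.00178 for 2 to 4 Mb and -0.0110 for 4 to 12 Mb. Within pairs of different sides it was 3.75 points for the strongest-peak share and -0.00651 for the brother-sister correlation. In the first stretch of library numbers it was -0.00639 points for groupXIX share, -0.0195 for 12 Mb to the end, 2.38 points for the strongest-peak share and -0.0295 for the correlation. In the second it was 0.298 for total counts and 2.26 points for the strongest-peak share. In the third it was -0.0388 points for groupXIX share, -0.0218 for 0 to 2 Mb, -0.0743 for 2 to 4 Mb and -0.0394 for 4 to 12 Mb. With each pair left out the ranges were -0.00284 to 0.0362 for groupXIX share, -0.00842 to 0.0347 for 2 to 4 Mb, -0.00764 to 0.00988 for 4 to 12 Mb, -2.08 to 0.309 points for the strongest-peak share and -0.00745 to 0.00925 for the correlation. The linkage groups whose difference changed sign ran from -0.00785 to 0.0115 (groupIX), -0.000599 to 0.00713 (groupV), -0.0205 to 0.00305 (groupX), -0.00655 to 0.00830 (groupXI), -0.00200 to 0.00984 (groupXII), -0.00432 to 0.000763 (groupXIII), -0.00553 to 0.00431 (groupXV), -0.00174 to 0.0141 (groupXVI) and -0.00901 to 0.00130 (groupXXI). Low counts at weak peaks and groups of 8 and 7 pairs limit the comparison.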
